A study of Mus musculus with 20 samples.

Results

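Diacylglycerol kinases are a family of lipid kinases, and 7 of their genes (Dgka, Dgkd, Dgke, Dgkg, Dgkh, Dgkq and Dgkz) were followed here in 2 tissues, gonadal fat pad and liver, of mice with and without a deficiency of the kinase PKCε (gene Prkce). The members were found by gene symbol, as 7 of the 48440 Ensembl gene IDs in the count table; the rule itself uses no measured value. RNA was sequenced in 20 libraries, 5 in each of 4 groups: WT fat, KO fat, WT liver and KO liver. The design gives 5 mice per group. Fat and liver libraries share replicate numbers within a genotype, and whether an equal number means the same mouse is not stated, so the comparisons of tissues treat the libraries as separate samples. All mice were on a C57BL/6 background, had eaten a diet rich in fat for 1 week and had then fasted for 6 h. KO stands for the genotype label AdEpsKO, whose meaning the labels do not spell out, so it is not known here in which cells Prkce was deleted, and the age and sex of the mice are not known either. WT mice carry the label WT and no other allele is named.

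A diacylglycerol kinase transfers a phosphate from ATP to diacylglycerol and makes phosphatidic acid. This removes the lipid that recruits and activates PKCε and other proteins with a C1 domain, and it supplies a precursor of phospholipids. In fat and liver, diacylglycerol is also an intermediate of triglyceride synthesis and breakdown, and its build-up has been linked to PKCε activity and insulin resistance. The family is divided into types by the domains beside the shared catalytic domain. Type I (Dgka, Dgkg) binds calcium through EF hands, type II (Dgkd, Dgkh) carries a pleckstrin homology domain, type III (Dgke) is the simplest and prefers diacylglycerol with arachidonic acid, type IV (Dgkz) carries ankyrin repeats, and type V (Dgkq) has more C1 domains than the others.

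The upstream windows of 3 members are shown because these genes had the largest differences between fat and liver and a single start each in RefSeq (GRCm38.p6). Each is the 250 bases before the start, written 5′ to 3′ on the gene's strand, and capitals mark the motifs that were searched for. Dgkd and Dgke were the members with the higher level in fat and Dgkq the member with the higher level in liver.
Dgkd, chr1:87853037-87853286, plus strand: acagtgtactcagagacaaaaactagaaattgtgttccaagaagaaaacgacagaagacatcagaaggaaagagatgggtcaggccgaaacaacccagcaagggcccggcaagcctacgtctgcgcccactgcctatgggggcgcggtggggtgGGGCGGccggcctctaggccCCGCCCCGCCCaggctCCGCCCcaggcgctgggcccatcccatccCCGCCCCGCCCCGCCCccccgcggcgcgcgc
Dgke, chr11:89060749-89060998, minus strand: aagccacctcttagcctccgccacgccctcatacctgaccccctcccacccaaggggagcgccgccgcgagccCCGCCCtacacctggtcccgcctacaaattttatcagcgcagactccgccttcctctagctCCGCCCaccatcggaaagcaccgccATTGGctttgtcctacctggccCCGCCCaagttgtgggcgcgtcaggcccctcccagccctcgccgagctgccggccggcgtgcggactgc
Dgkq, chr5:108660831-108661080, minus strand: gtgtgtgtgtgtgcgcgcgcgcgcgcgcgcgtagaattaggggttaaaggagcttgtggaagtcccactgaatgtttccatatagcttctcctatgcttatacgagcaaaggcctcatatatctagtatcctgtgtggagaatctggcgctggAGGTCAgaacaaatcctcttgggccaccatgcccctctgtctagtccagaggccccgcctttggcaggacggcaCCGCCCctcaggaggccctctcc

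The motifs were GGGCGG (the GC box, found in 32.7% of all 32851 RefSeq windows of the same length), CCAAT (33.8%), TATAAA (12.4%), CACGTG (the E-box, 6.02%), TGACGTCA (the cAMP response element, 1.55%), AGGTCA (a core motif of nuclear receptors, 14%) and TTGCNNCAA (a C/EBP palindrome, 1.74%), each on both strands. The Dgkd window held 7 GC boxes, of which 3 adjoining pairs overlapped by 1 base, and 0.411% of all windows held as many. The Dgke window held 3 GC boxes and 1 CCAAT, and the Dgkq window 1 GC box and 1 AGGTCA. The Dgkd window held 21 CpG and the Dgke window 22, against a median of 6 over all windows, and the Dgkq window held 14. All 7 members matched RefSeq, with 13 windows in all; Dgka had 4 starts, Dgkh 3 and Dgkz 2, and the gene totals do not show which start was used. The RefSeq starts of Dgke and Dgkq lie inside the gene spans of GENCODE M21. These matches describe letters and were not tested as sites.

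Library totals ran from 12880933 to 17276907 expected counts in fat and from 13836370 to 20784145 in liver. The tissue labels were checked against marker genes: 8 adipocyte markers summed to between 20320 and 36770 CPM (counts scaled to a common library total) in the fat libraries and between 11.45 and 83.07 CPM in the liver libraries, and 8 hepatocyte markers to between 110900 and 148900 CPM in liver and between 14.83 and 619.6 CPM in fat. Some libraries stood apart. KO fat replicate 2 held 1748 CPM of bladder epithelium markers (27.08 CPM or less in the remaining 9 of fat) and 6555 CPM of smooth muscle markers, and KO fat replicate 3 and WT fat replicate 4 held the most hepatocyte transcripts in fat. KO fat replicate 2 also held the most uterus and oviduct markers in fat (447.3 CPM). WT fat replicate 3 and KO fat replicate 3 were the highest in macrophage and fibroblast markers. WT liver replicates 2 and 4 held the most skeletal muscle transcripts in liver (133.7 and 244.4 CPM). In fat these ran from 16.14 to 813.9 CPM, highest in WT fat replicate 2 and then KO fat replicate 2 (555 CPM). Prkce itself ran from 16.1 to 25.5 CPM in KO fat, under every WT fat library (25.8 to 48.2 CPM), with a ratio of 0.615 (95% interval 0.45 to 0.841; exact permutation p = 0.00794; adjusted p = 0.687 by edgeR). In liver its ranges overlapped (ratio 0.781, 0.595 to 1.02; adjusted p = 0.417 by edgeR), with 12 to 19.97 CPM in KO liver and 14.7 to 27.4 CPM in WT liver.

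Levels of the members below are CPM scaled by TMM over all 20 libraries, and levels of different genes are compared only per kb of the longest annotated transcript (GENCODE M21). In WT fat the family was led by Dgkd, at 31.9 ± 6.03 CPM per kb, followed by Dgkz at 12.3 ± 3.92, Dgka at 7.22 ± 0.595, Dgkq at 3.07 ± 0.546 and Dgke at 2.98 ± 0.498 (SD, n = 5 each). Dgkh, at 0.212 ± 0.0304 CPM per kb, and Dgkg, at 0.0537 ± 0.0518, were far lower. Dgkq and Dgke did not differ beyond their spread, and with the length of all exons in place of the longest transcript Dgke stood above Dgkq (2.97 ± 0.496 against 2.28 ± 0.406). In WT liver the order was Dgkz (14.5 ± 1.6 CPM per kb), Dgkd (9.74 ± 0.558), Dgkq (8.22 ± 0.632) and Dgka (4.81 ± 0.479), with Dgke at 0.491 ± 0.0669, Dgkh at 0.16 ± 0.0684 and Dgkg at 0.0255 ± 0.0266. In KO liver, Dgkd (9.3 ± 0.919) and Dgkq (9.09 ± 1.31) did not differ beyond their spread.

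**Figure D1:**
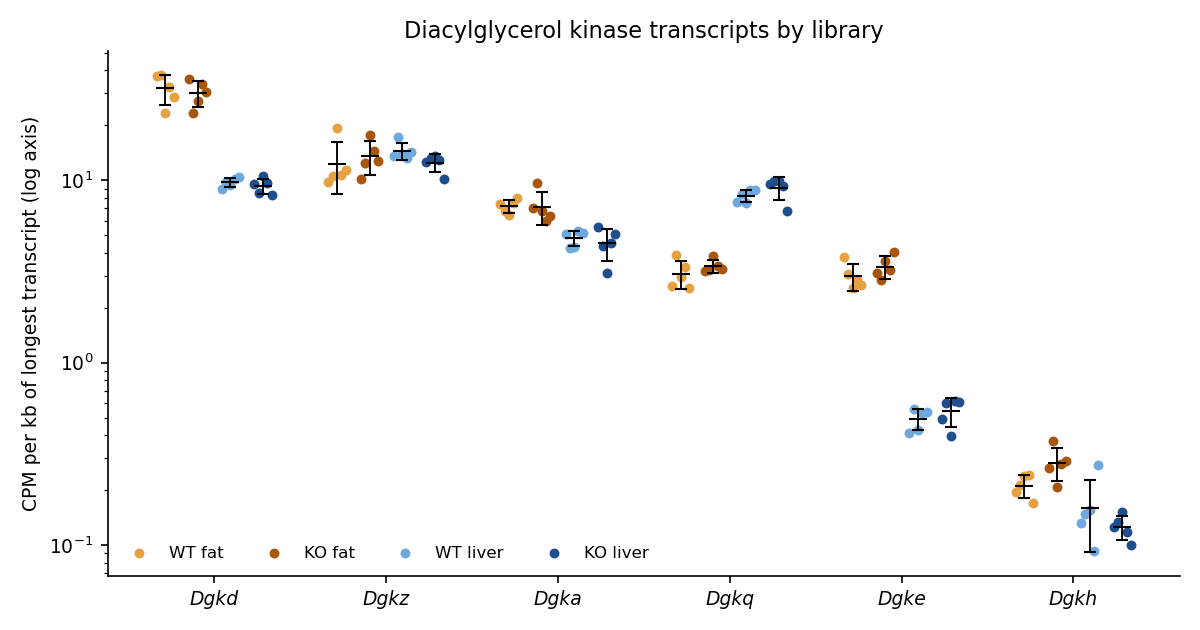
Level of 6 members in each library, in CPM per kb of the longest transcript on a log axis, for WT fat, KO fat, WT liver and KO liver; each point is 1 library and the bars give mean and SD of 5. Dgkg is left out because some of its values are 0. Dgkd averages 31.9 in WT fat and 9.74 in WT liver, Dgkq 3.07 and 8.22, and KO and WT points overlap for each member.

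As a share of the summed length-scaled level of the 7 members, Dgkd made up 54.9 ± 7.45% in WT fat and 51.8 ± 6.29% in KO fat, against 25.7 ± 0.984% in WT liver and 25.8 ± 1.75% in KO liver. Dgkq made up 5.31 ± 0.769% in WT fat and 21.7 ± 1.05% in WT liver, and Dgkz 21.6 ± 7.81% and 38.1 ± 2.99%. The summed level was 57.8 ± 3.91 CPM per kb in WT fat, 57.9 ± 3.51 in KO fat, 37.9 ± 2.1 in WT liver and 36.1 ± 2.86 in KO liver. The Dgkd share ran from 42.7% to 60.9% in the WT fat libraries and from 24.3% to 26.5% in the WT liver libraries. The Dgkq share was 25.1 ± 1.93% in KO liver and 5.85 ± 0.448% in KO fat, so the larger SD went with the larger share. The lowest Dgkd share in fat, and the highest Dgkz share (35.1%), belonged to WT fat replicate 3.

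**Figure D2:**
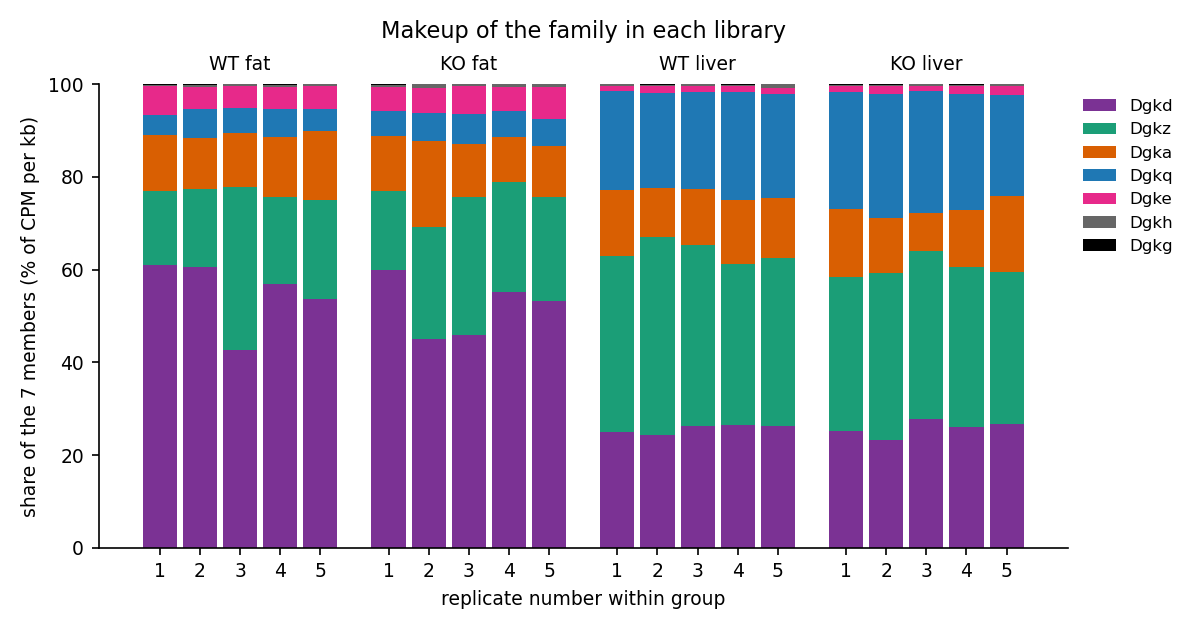
Share of each of the 7 members in the summed CPM per kb, in percent, for each of the 20 libraries (bars, by group and replicate number). Dgkd averages 54.9% of the family in WT fat and 25.7% in WT liver, where Dgkz (38.1%) and Dgkq (21.7%) take more.

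The comparison of fat with liver asked which kinases each tissue carries, in WT mice and again in KO mice. Of the 6 members that passed the filter on low counts, 3 were higher in WT fat (Dgkd, Dgke and Dgka) and 1 was lower (Dgkq) by edgeR's quasi-likelihood test. Over all 14739 genes tested, 74.3% were called, 38.4% as higher and 35.9% as lower in fat, so 4 of 6 is near the share of genes at large. Fat and liver ranges were separate for the same 4 members, against 62.4% of all genes. In KO mice 5 of 6 were called, 4 as higher and 1 as lower, where 74.4% of 14603 genes were called (38.8% higher, 35.6% lower), and ranges were separate for these 5 members, against 63.1% of genes. The median log2 difference of the 6 members was 0.50 in WT and 0.95 in KO mice, against 0.04 and 0.05 over all genes. These differences are relative to the scaling: TMM factors were 1.301 to 1.461 in fat and 0.691 to 0.76 in liver, and with plain library sizes the median of all genes moved to 0.97 in WT and 0.95 in KO mice. Fewer cells of a type and less RNA per cell cannot be told apart in such bulk samples.

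Dgkd (ENSMUSG00000070738, chr1:87853287-87945180, plus strand), of type II, has been tied to insulin signalling and glucose uptake in muscle. Its 5 WT fat libraries held 212, 215, 133, 185 and 163 CPM and its 5 WT liver libraries 51, 56, 53.8, 57.5 and 59.1 CPM. The fat libraries all lay above the liver libraries, and the lowest of WT fat was replicate 3. The ratio of fat to liver was 3.3 (95% interval 2.7 to 4.02) in WT mice, with an adjusted p of 2.1e-07 by edgeR. In KO mice, fat held 203, 134, 155, 192 and 173 CPM and liver 54.4, 48.4, 59.98, 54.8 and 47.1 CPM, again without overlap, with a ratio of 3.31 (2.74 to 4). Measured against the median of all genes, the log2 difference of Dgkd in WT mice lay between 1.49 and 1.79 under each alternative run.

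Dgke (ENSMUSG00000000276, chr11:89035179-89066850, minus strand), of type III, phosphorylates arachidonoyl diacylglycerol in the phosphoinositide cycle. It had the widest tissue difference of the tested members. WT fat held 31.7, 25.7, 21.3, 23.6 and 22.1 CPM and WT liver 3.45, 4.64, 3.55, 4.43 and 4.45 CPM. The groups were far apart, with a ratio of 6.09 (4.9 to 7.58) and an adjusted p of 1.22e-08 by edgeR. KO mice held 25.9, 23.6, 30.2, 26.9 and 33.6 CPM in fat and 4.1, 4.99, 3.31, 5.13 and 5.06 CPM in liver, with a ratio of 6.36 (5.05 to 8.01). Over all genes tested in WT mice, 19.9% had a log2 difference at least as far from 0 as that of Dgke. Dgke shares 100 exon bases with the antisense gene Dgkeos, whose count was at most 3 in any library.

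Dgka (ENSMUSG00000025357, chr10:128720134-128744855, minus strand), of type I, restrains diacylglycerol signalling in T cells, among other roles. WT fat held 20.99, 19.3, 18.3, 21.2 and 22.6 CPM and WT liver 14.4, 12.1, 12.2, 14.9 and 14.5 CPM. The ranges were separate but close, with a ratio of 1.51 (1.3 to 1.75) and an adjusted p of 0.000169 by edgeR. KO fat held 19.8, 27.4, 19.1, 17 and 17.9 CPM and KO liver 15.6, 12.3, 8.8, 12.9 and 14.4 CPM, and here too fat lay above liver (1.62, 1.25 to 2.11; adjusted p = 0.00328 by edgeR). The KO fat library with the bladder and smooth muscle transcripts, replicate 2, held the most Dgka. T lymphocyte markers, 10 genes, summed to between 14.08 and 22.2 CPM in the fat libraries and between 2.955 and 9.222 CPM in the liver libraries. These sums use plain library sizes and the Dgka levels TMM, so their tissue ratios are not on the same scale. Within groups Dgka did not rise with this list (r = -0.405 in fat and -0.134 in liver, adjusted p = 0.661 and 0.9, permutation). The part of the list in the tissue difference of Dgka was not tested. Dgkg (ENSMUSG00000022861, chr16:22468461-22657221, minus strand), the other member of type I, did not pass the filter in any comparison. Its counts ran from 0 to 12 in the WT fat, 2 to 8 in the KO fat, 0 to 3 in the WT liver and 1 to 3 in the KO liver libraries, and a difference was not detectable at this depth.

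Dgkq (ENSMUSG00000004815, chr5:108646693-108669672, minus strand), of type V, was the member with more RNA in liver. WT fat held 13.99, 20.7, 15.7, 17.9 and 13.8 CPM and WT liver 40.7, 44.6, 40.2, 47.2 and 47.1 CPM. Every liver library lay above every fat library, and the ratio of fat to liver was 0.376 (0.313 to 0.452) with an adjusted p of 5.58e-07 by edgeR. KO fat held 17.1, 17.2, 20.5, 18.1 and 17.5 CPM and KO liver 51.2, 52.6, 53.2, 49.6 and 36.4 CPM, with a ratio of 0.381 (0.321 to 0.452). The lowest KO liver value, replicate 5, was still above all fat libraries. With plain library sizes the log2 difference was smaller, at -0.48 in WT and -0.49 in KO mice, and still called (adjusted p = 0.0025 and 0.00263 by edgeR). Dgkq shares 2090 exon bases on the opposite strand with Tmem175, and the sources used here do not say whether the counting used the strand, so the Dgkq values are uncertain. Tmem175 had the other direction, with a ratio of fat to liver of 1.88 (1.49 to 2.36) in WT mice. Other exon overlaps on the opposite strand included Dgkq with Idua (124 bases, at most 489 counts in a library) and Dgkd with Usp40 (62 bases, 1348 counts). Dgkz shared 222 bases with Gm9821 (at most 123.44 counts) and Dgka 105 with Pmel (at most 19). The effect of these overlaps on the values was not tested.

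Dgkz (ENSMUSG00000040479, chr2:91932824-91975864, minus strand), of type IV, is a widely expressed kinase that acts at the plasma membrane and in the nucleus. WT fat held 40.8, 44.2, 80.3, 44.3 and 47.4 CPM and WT liver 56.6, 71.9, 58.2, 55.4 and 59.4 CPM. The groups overlapped through WT fat replicate 3, and Dgkz did not pass the test (ratio 0.857, 0.657 to 1.12; adjusted p = 0.268 by edgeR). Without that library the log2 difference was -0.43 and was called (adjusted p = 0.00133 by edgeR). With plain library sizes it was 0.72 and called, in the other direction (adjusted p = 0.00492), so no direction holds across the scalings; measured against the median of all genes it ran from -0.47 to -0.20. In KO mice fat held 42.5, 52.1, 74, 60.2 and 53.4 CPM and liver 52.7, 55, 56.9, 53.5 and 42.5 CPM, with a ratio of 1.11 (0.897 to 1.37). That difference did not pass (log2 0.15, adjusted p = 0.346 by edgeR). With plain library sizes it was 1.05 and with upper quartile factors 0.43, and both were called (adjusted p = 6.33e-05 and 0.017 by edgeR). Measured against the median of all genes, it was 0.102 and 0.099 under these scalings, against 0.096 in the main run. Across all runs in KO mice that value lay between -0.115 and 0.177.

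Dgkh (ENSMUSG00000034731, chr14:78558750-78732776, minus strand), of type II, was low in both tissues. It shares 819 exon bases on the same strand with Gm48998, which has no counts of its own here, and the effect on the Dgkh values was not tested. WT fat held 2.96, 3.25, 3.66, 3.69 and 2.6 CPM and WT liver 2, 2.24, 2.36, 1.41 and 4.19 CPM. WT liver replicate 5 lay above every WT fat library, and the ratio of 1.33 (0.882 to 2) did not pass (adjusted p = 0.186 by edgeR); without that library the log2 difference was 0.69 and passed (adjusted p = 0.0176). KO fat held 4.05, 5.69, 3.19, 4.23 and 4.41 CPM and KO liver 1.91, 2.04, 2.31, 1.8 and 1.52 CPM. These did not overlap, and the ratio was 2.3 (1.68 to 3.14) with an adjusted p of 0.000239 by edgeR. Whether the tissue difference of Dgkh itself differs between the genotypes is the interaction given below, which did not pass.

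**Figure D3:**
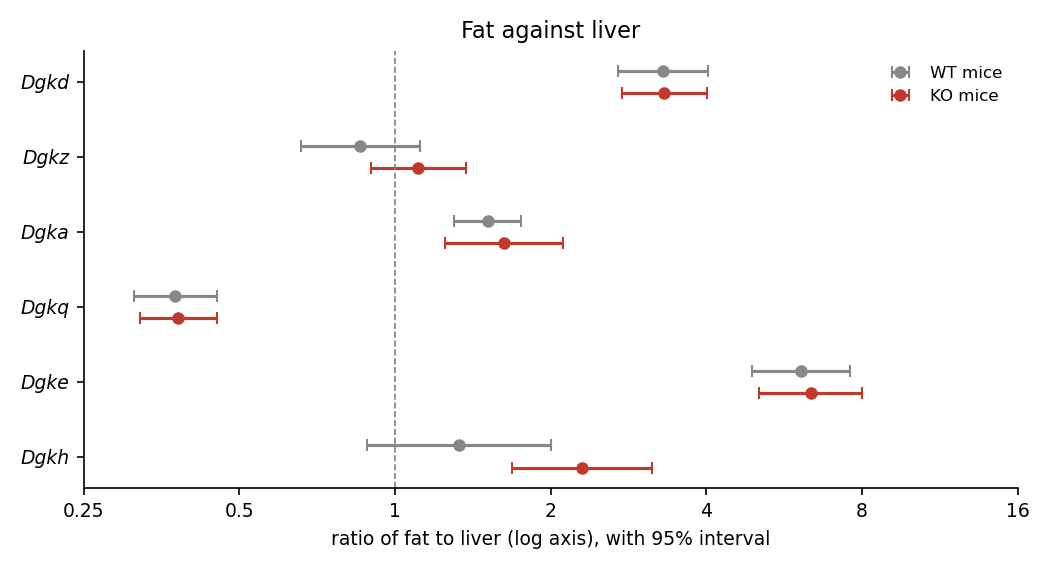
Ratio of fat to liver for 6 members on a log axis, with 95% intervals, in WT mice (grey) and KO mice (red). Dgke, Dgkd and Dgka lie above 1 and Dgkq below 1 in both, at 6.09, 3.3, 1.51 and 0.376 in WT mice, while the interval of Dgkz includes 1 in both.

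The comparison of KO with WT set the mice labelled as PKCε deficient against controls, for the enzymes that remove the activator of PKCε. In fat, none of the 6 tested members was called by edgeR, where 0% of 14707 genes were called. In liver none was called either, where 0.00752% of 13298 genes, 1 gene, were. At an unadjusted p under 0.05, 1 of 6 members was reached in each tissue, against 7.13% of all genes in fat and 13.1% in liver. DESeq2 and limma-voom called no member in either tissue (DESeq2 gave Dgkh no adjusted p in fat), and DESeq2 called 16 genes in fat and 138 in liver. KO and WT ranges overlapped for every member in both tissues; they were separate for 1.26% of genes in fat and 2.84% in liver. The median log2 difference of the 6 members was 0.14 in fat and -0.09 in liver, against 0.00 over all genes in each; 4 of 6 members lay above 0 in fat (50.1% of all genes) and 2 of 6 in liver (50% of all genes).

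Of the members in fat, Dgkh had the smallest p. The KO fat libraries averaged 4.32 ± 0.901 CPM and the WT fat libraries 3.23 ± 0.464 CPM (SD, n = 5 each), and 4 of 5 KO libraries lay above the highest WT library. The ratio was 1.33 (95% interval 1 to 1.77), the exact permutation p was 0.0397 (two-sided, where 0.00794 is the smallest that 5 against 5 libraries allow) and the adjusted p was 0.687 by edgeR, so the difference did not pass. Across the alternatives that gave a value the log2 difference of Dgkh ran from 0.30 to 0.56 and the adjusted p from 0.575 to 0.975. The highest KO value, 5.69 CPM, was in the library with bladder transcripts. Dgkh in liver lay the other way, with 1.92 ± 0.294 CPM in the KO and 2.44 ± 1.04 CPM in the WT libraries (ratio 0.781, 0.521 to 1.17). The KO effect on Dgkh differed between fat and liver by 0.77 in log2 (fat minus liver, 0.06 to 1.47), with an adjusted p of 0.903 by edgeR. Of 15652 genes, 0% were called for this interaction, 5.36% had an unadjusted p under 0.05 (1 of 6 members) and DESeq2 called 2; 4 of 6 members and 50.9% of genes lay above 0.

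In liver, Dgkz had the smallest p of the members. KO liver averaged 52.1 ± 5.6 CPM and WT liver 60.3 ± 6.67 CPM, and 1 KO library, at 56.9 CPM, lay above 2 of the WT libraries. The ratio was 0.858 (0.741 to 0.994), the two-sided exact permutation p was 0.0238 and the adjusted p was 0.364 by edgeR. Macrophage markers, 8 genes, summed to between 428.1 and 475.3 CPM in KO and between 408 and 746.2 CPM in WT liver, with none of the 8 at 0. Over the 10 liver libraries, deviations of Dgkz and of the macrophage list from their group means had r = 0.476 (adjusted p = 0.542, permutation) and rho = 0.6 (adjusted p = 0.557, permutation), and r = 0.0648 without WT liver 2 and WT liver 4. In fat the direction of Dgkz was not the same: the KO libraries averaged 56.5 ± 11.7 CPM and the WT libraries 51.4 ± 16.4 CPM (ratio 1.1, 0.808 to 1.5). Without the pair of fat libraries that held the most hepatocyte transcripts, the log2 difference of Dgkz in fat was -0.03, against 0.14 with all libraries. It was 0.35 without WT fat replicate 3, 0.02 without KO fat replicate 3 and 0.23 without both of these, and none of these values passed. The difference of the KO effects, fat minus liver, was 0.35 (-0.14 to 0.84; adjusted p = 0.94 by edgeR).

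The other 4 tested members had larger p-values in each tissue than Dgkh in fat and Dgkz in liver. In fat, the KO to WT ratio was 0.942 (0.737 to 1.2) for Dgkd, 1.13 (0.921 to 1.37) for Dgke, 1.1 (0.91 to 1.33) for Dgkq and 0.989 (0.812 to 1.2) for Dgka. In liver it was 0.948 (0.834 to 1.08), 1.09 (0.836 to 1.43), 1.1 (0.94 to 1.28) and 0.933 (0.75 to 1.16) in the same order. Two-sided exact permutation p-values ran from 0.23 to 0.841 for these 4 in fat and from 0.262 to 0.595 in liver, among 12 such tests in all. The intervals of these 4 members stayed within 0.737 and 1.43, and changes smaller than that are not excluded by them. The Dgkq estimates were 1.1 in both tissues, and the difference of the effects was -0.01 (-0.35 to 0.34). Beside the fat comparison, adipocyte markers summed to between 20320 and 29830 CPM in KO fat and to between 26520 and 36770 CPM in WT fat, with none of the 8 at 0. Correlations of members with marker lists within groups are given further on, and the part of the markers in the KO to WT differences was not tested.

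**Figure D4:**
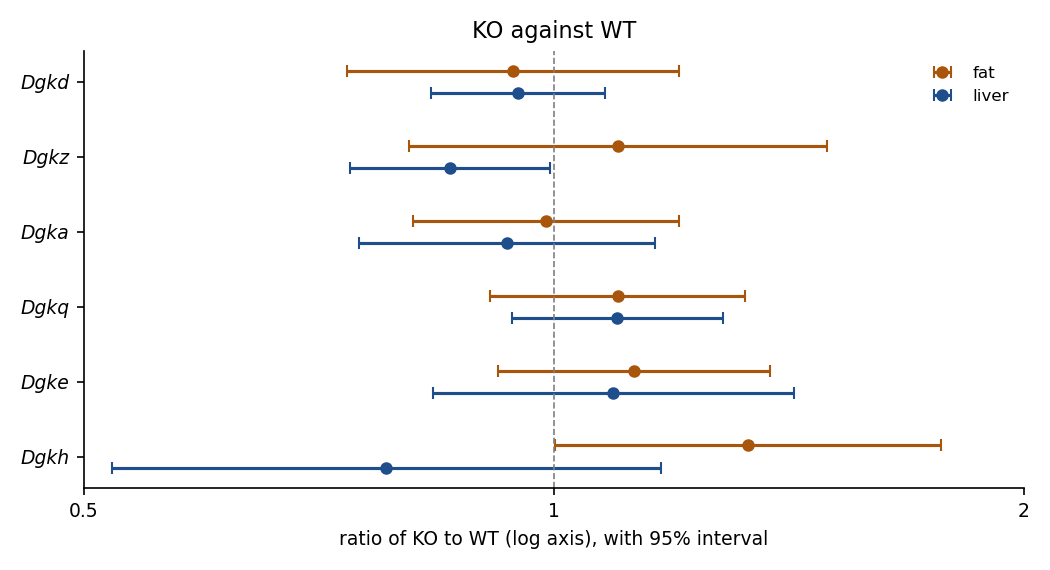
Ratio of KO to WT for 6 members on a log axis, with 95% intervals, in fat (brown) and liver (blue). The ratios run from 0.942 to 1.33 in fat and from 0.781 to 1.1 in liver; only the intervals of Dgkh in fat (1 to 1.77) and Dgkz in liver (0.741 to 0.994) leave out 1, and neither passed after adjustment.

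Within groups, by Pearson's r, Dgkz rose with macrophage, fibroblast and erythroid markers in fat and with endothelial markers in liver. Dgke in fat fell as mesothelium markers rose. No other pair of a member and a marker list passed after adjustment, and no Spearman rho did. Deviations of log2 CPM from the group mean were set against those of 14 marker lists over the 10 libraries of a tissue. There were 168 correlations in all, each with a permutation test of 100000 resamples. The resampling shuffled libraries across both genotypes and did not allow for the group means taken out beforehand. Its p-values can therefore be too small, and adjusted p-values of 0.0336 to 0.0339 are not firm passes. Dgkz in fat followed the macrophage list: Pearson r was 0.904 (p = 0.00052, adjusted p = 0.0336, permutation) and Spearman rho 0.77 (p = 0.0132, adjusted p = 0.277, permutation). Without KO fat 3 and WT fat 3, the 2 farthest libraries, r was 0.718. These 2 libraries held 2387 and 3251 CPM of macrophage markers and 74 and 80.3 CPM of Dgkz, while the other fat libraries held 567.4 to 1882 CPM and 40.8 to 60.2 CPM. Dgkz followed the fibroblast list (r = 0.901, adjusted p = 0.0339; rho = 0.83, adjusted p = 0.235, permutation) and the erythroid list (r = 0.884, adjusted p = 0.0336; rho = 0.855, adjusted p = 0.235, permutation) as closely; without the 2 libraries farthest in each list r was 0.531 and 0.888. Replicate 3 of each genotype held the highest sum of its group in all 3 lists, so the lists cannot be told apart here.

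**Figure D5:**
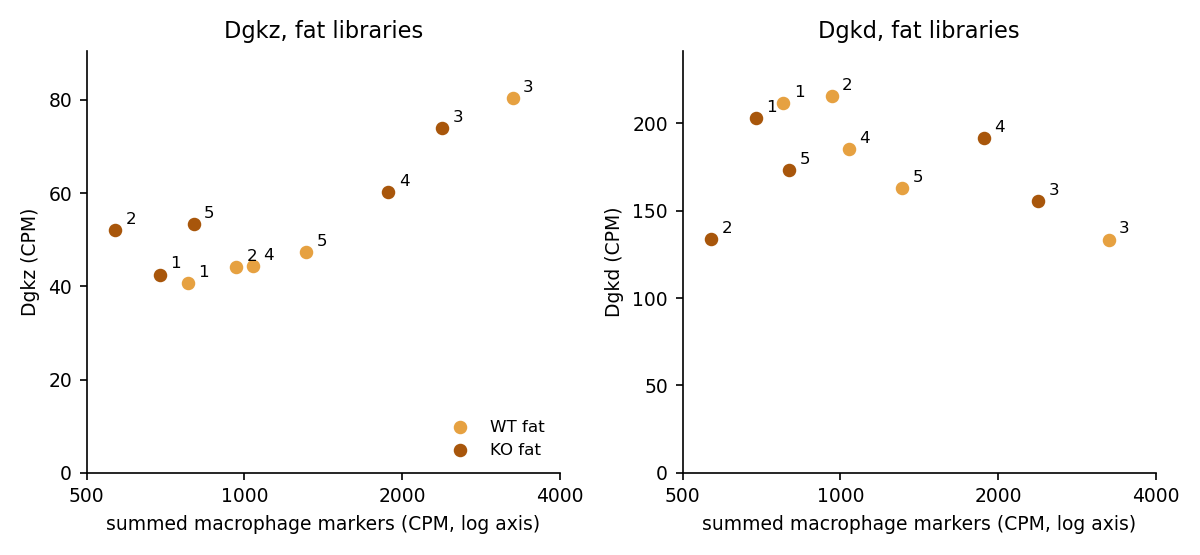
Dgkz (left) and Dgkd (right) in CPM against the summed CPM of 8 macrophage markers (log axis) in the 10 fat libraries; points are libraries, labelled by replicate number, WT fat light and KO fat dark. Replicate 3 of each genotype holds the most macrophage marker RNA (3251 CPM in WT, 2387 CPM in KO) and the most Dgkz (80.3 and 74 CPM).

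Dgkd took the other course in fat with some lists. It was lower where fibroblast markers were higher (r = -0.795, p = 0.00543, adjusted p = 0.114; rho = -0.867, adjusted p = 0.235, permutation; r = -0.681 without the 2 farthest libraries). It was also lower where smooth muscle markers were higher (r = -0.795, p = 0.00425, adjusted p = 0.114; rho = -0.697, adjusted p = 0.381, permutation; r = -0.81 without the 2 farthest) and higher where adipocyte markers were (r = 0.764, adjusted p = 0.189; rho = 0.709, adjusted p = 0.374, permutation), and none of the 3 passed after adjustment. The adipocyte relation rested on KO fat 2 and WT fat 3, without which r was 0.332. These were the libraries lowest in Dgkd of their groups, at 134 and 133 CPM. Dgke in fat was lower where mesothelium markers were higher (r = -0.918, p = 0.00026, adjusted p = 0.0336; rho = -0.806, adjusted p = 0.241, permutation; r = -0.753 without the 2 farthest). Dgka in fat did not pass with any list: it was lower where B lymphocyte markers were higher (r = -0.793, adjusted p = 0.114; rho = -0.758, adjusted p = 0.282, permutation; r = -0.553 without the 2 farthest). It also went with bladder epithelium markers (r = 0.857, adjusted p = 0.178; rho = 0.673, adjusted p = 0.419, permutation), which rested on KO fat 2 and KO fat 5, since r was 0.366 without them. In liver, Dgkz followed the endothelial list (r = 0.876, adjusted p = 0.0339; rho = 0.794, adjusted p = 0.25, permutation), with endothelial sums of only 145.9 to 172.2 CPM over the 10 libraries, and r was 0.661 without KO liver 5 and WT liver 2.

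The genes whose deviations from the 4 group means were most like those of a member, among 11923 genes over 20 libraries, are given as a description, since the highest of so many correlations is high by selection. Nearest to Dgkz were Prkcd, a protein kinase C activated by diacylglycerol (r = 0.91), Ftl1, the ferritin light chain (0.91), and Cxcl16, a membrane-bound chemokine (0.906). For Prkcd r was 0.967 within fat and 0.576 within liver. Near Dgkd were Ppm1a, a protein phosphatase (0.877), and Tbc1d20 (0.861). Dgkq was nearest to Mau2, a loader of cohesin (0.846), Pias4, a SUMO ligase (0.829), and Pgp (0.821). The nearest genes of Dgka were Suco (0.804), Pafah2, an acetylhydrolase of platelet-activating factor (0.803), and Dzip1l (0.803), those of Dgke were Pygo1 (0.763), Pnkd (0.754) and Trib2 (0.752), and those of Dgkh were Mypop (0.726), Ccdc3 (0.701) and Gpatch8 (0.7). No member was among the 3 nearest genes of another, and between members r ran no higher than 0.325 (Dgkd with Dgkq) and no lower than -0.493 (Dgkd with Dgkz) over the 20 libraries. Within tissues the pairs differed: Dgkd with Dgkz had r = -0.69 in fat and 0.491 in liver, Dgkd with Dgkq 0.201 and 0.692, and Dgkq with Dgkz 0.146 and 0.689, as descriptions over 10 libraries each.

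The remaining diacylglycerol kinase genes in the table were scarce. Dgkb reached 0.884 ± 0.134 CPM in WT fat and 0.646 ± 0.234 CPM in KO fat (SD, n = 5 each), and was under 0.2 CPM in each liver library. Dgki stayed under 1 CPM except in KO fat replicate 2, the library with bladder transcripts, which held 2.38 CPM. Dgkk was under 0.2 CPM in every library. Between WT fat and WT liver Dgkb was called, with a ratio of 15.1 (5.85 to 38.8, adjusted p = 8.21e-05 by edgeR). That ratio rested on counts of 0 to 2 in the WT liver libraries. Dgkb passed the filter there through its WT fat counts (15 to 25), which left little room for a call in the other direction. It did not pass the filter between KO fat and KO liver, nor between KO and WT in liver, and was not tested there.

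The other genes of diacylglycerol metabolism were described through 7 lists with 65 genes. None passed by edgeR between KO and WT. Of 63 tested in fat, 36 lay higher and 27 lower in KO (50.1% of all genes lay higher). In fat 7 had an unadjusted p under 0.05 by edgeR, as did 7.13% of all genes. These 7 included Prkce itself, the gene labelled as deficient, so they do not describe the other genes alone. They also included Plch2, at 10.7 ± 21.9 CPM in KO fat and 0.774 ± 0.532 CPM in WT fat. The SD of Plch2 in KO fat was above its mean. Of 56 tested in liver, 17 lay higher and 39 lower in KO (50% of all genes lay higher). In liver 4 had an unadjusted p under 0.05 by edgeR, as did 13.1% of all genes. Among the lipases and acyltransferases that make diacylglycerol, Pnpla2, the main triglyceride lipase of adipocytes, averaged 1187 ± 215 CPM in KO fat and 1654 ± 207 CPM in WT fat (ratio 0.717, 0.564 to 0.912; adjusted p = 0.687 by edgeR). Mogat2, which makes diacylglycerol from monoacylglycerol, had the other direction, with 18.5 ± 10.8 CPM in KO fat and 7.06 ± 4.54 CPM in WT fat (ratio 2.61, 1.1 to 6.21; adjusted p = 0.687 by edgeR). Among phosphatases that make diacylglycerol from phosphatidic acid, Plpp2 averaged 24.1 ± 2.87 CPM in KO liver and 33 ± 2.45 CPM in WT liver, without overlap (ratio 0.727, 0.626 to 0.844; adjusted p = 0.188 by edgeR). In the same list Sgms2, a sphingomyelin synthase, had the other direction, with 100.8 ± 13.2 CPM in KO liver and 77.2 ± 8.33 CPM in WT liver (ratio 1.3, 1.11 to 1.52; adjusted p = 0.231 by edgeR). Of the other makers of phosphatidic acid, the acyltransferase Agpat5 averaged 21.2 ± 0.786 CPM in KO fat and 18.9 ± 1.22 CPM in WT fat, also without overlap (ratio 1.12, 1.01 to 1.25; adjusted p = 0.687 by edgeR). The phospholipases C, which release diacylglycerol at the membrane, had a median log2 difference of 0.11 over 11 tested genes in fat and -0.20 over 9 in liver. For the C1 domain list, in which most but not all proteins bind diacylglycerol through that domain, the medians were 0.14 over 19 genes and -0.17 over 16. Prkce was included in both. Both pairs of medians stood beside 0.00 for all genes in each tissue.

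Between WT fat and WT liver, 35 of the 61 tested genes of these lists were higher and 14 lower in fat, against 38.4% and 35.9% of all genes; these shares are also the background for each list that follows. Of the enzymes that remove diacylglycerol by other routes, 4 of 8 were higher in fat and 2 lower. Among them Lipe, hormone-sensitive lipase, held 1594 ± 263 CPM in fat and 26.8 ± 4.77 CPM in liver, and Dgat1, which makes triglyceride, 197 ± 57.5 and 22.7 ± 3.77 CPM. Of the phosphatases and sphingomyelin synthases, 3 of 8 were higher in fat and 4 lower, led by Lpin2, a phosphatidic acid phosphatase, with 17.2 ± 4.47 CPM in fat and 581 ± 75.2 CPM in liver. All 3 of the other diacylglycerol-forming genes (Pnpla2, Mogat1 and Mogat2) were higher in fat. Mogat1 held 11.8 ± 2.76 CPM in fat and 0.407 ± 0.261 CPM in liver, and Mogat2 7.06 ± 4.54 and 0.319 ± 0.18 CPM. Neither passed the filter in the liver comparison of KO with WT. Both were thus tested through their fat level, which left little room for a call in the other direction. Of the phospholipases C, 5 of 9 were higher in fat and 1 was lower. Plcd1, a calcium-sensitive phospholipase C, held 27.1 ± 3.17 CPM in fat and 1.15 ± 0.321 CPM in liver. Of 19 tested genes in the C1 domain list 11 were higher in fat, among them Prkce itself and Prkd1, protein kinase D1 (29.8 ± 7.9 against 0.102 ± 0.119 CPM). In that list 4 were lower, among them Prkd3, protein kinase D3 (55.9 ± 6.3 against 368 ± 94 CPM). The other makers of phosphatidic acid were higher in fat for 6 of 8 and lower for 2. In a list of genes that use phosphatidic acid or act elsewhere in phospholipid synthesis, 3 of 6 were higher and 1 was lower.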

How the data were processed

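Total RNA of fat and liver was made into stranded mRNA libraries. Per the submitters' processing notes, the tools were RSEM 1.2.12, STAR 2.4.0d, Trim Galore 0.2.8 and DESeq2, on GRCm38, with no order or settings. The authors deposited expected counts per gene, the kind of value RSEM gives, not normalized, 1 column per library; 3.95% to 5.8% of a library's values were not whole.

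Here they were rounded, filtered with filterByExpr (minimum count 10, minimum total 15), scaled by TMM and tested with edgeR 4.0.16's quasi-likelihood test (limma 3.58.1, R 4.3.3, robust fit), each comparison on its own groups; Benjamini-Hochberg adjusted p under 0.05 was called over all genes. Exact permutation tests used log2 CPM (prior count 2) and 252 assignments. Symbols came from GENCODE M21 (48058 of 48440 IDs matched). Alternatives were RLE, upper quartile, DESeq2 1.42.0, limma-voom, 2 other filters, all 20 libraries, a replicate block and each library left out; plain library sizes and pairs of libraries left out were added after seeing the data. Marker sums used plain library sizes. All 7 members are named; from lists, genes among the 4 smallest p. Up to 3 most alike genes are given per member, and 1 such gene is not reported here. The members' rule uses symbols only, but the members and lists were chosen with earlier results of these data known. The steps were tested on simulated counts. Depth limits low genes such as Dgkg most; intervals cover the spread between libraries.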

Additional observations from a re-analysis of the deposited data

Results flagged for a closer look

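Of 28 sets of 5 libraries (7 members in 4 groups), 6 held a library far from the others. Its gap to the nearest library was above 0.71 of the range of the group. That cut-off flags about 1 in 20 sets of independent normal values. The sets here share libraries and some rest on few counts, and the chance rate in these data was not measured. Dgkz was flagged in WT fat replicate 3 (80.3 CPM, nearest other library 47.4 CPM), in WT liver replicate 2 (71.9 against 59.4 CPM) and in KO liver replicate 5 (42.5 against 52.7 CPM). Dgkq was flagged in the same KO liver library, replicate 5 (36.4 against 49.6 CPM). Dgka was flagged in KO fat replicate 2, the library with bladder transcripts (27.4 against 19.8 CPM), and Dgkg in KO fat replicate 1 (0.432 against 0.188 CPM), where it rested on 8 counts. The interaction of genotype and tissue passed for no member.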

How the results depend on the processing

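Of 611 values of members under alternatives, 569 kept their direction and side of the threshold, 7 passed only under the alternative and 35 changed direction. In fat between KO and WT, Dgka was 0.018 and Dgkz -0.028 (log2) without both libraries with hepatocyte transcripts. The Dgkq interaction was 0.002 with upper quartile factors and 0.014 with the replicate block. Dgkz between WT fat and liver was 0.067 with upper quartile factors and 0.721 with plain library sizes, the only reversal that passed the test.
Leaving out 1 library at a time, the KO to WT log2 difference of Dgka ran from -0.146 to 0.043 in fat and from -0.179 to 0.012 in liver, and the interaction from -0.055 to 0.163 for Dgka, -0.121 to 0.06 for Dgkd, -0.057 to 0.133 for Dgke and -0.094 to 0.093 for Dgkq; none of these passed. Over all genes, KO against WT in fat called 0 by edgeR and 16 by DESeq2, and the interaction 0 and 2. In liver edgeR called 1 gene, against 138 by DESeq2, 3 by limma-voom, 15 with no filter, 2 with all 20 libraries in 1 fit, 3 without both libraries with skeletal muscle transcripts, and 0 (without WT replicate 3 or 5) to 3 (without KO replicate 5 or WT replicate 1 or 2) with 1 library left out. The median log2 difference of all genes between fat and liver was 0.336 (WT) and 0.327 (KO) with upper quartile factors, 0.261 and 0.285 with no filter, and 0.974 and 0.951 with plain library sizes. The cause of these shifts was not tested.

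With the replicate block, 3 genes were called in liver. Equal numbers do not mark shared animals across genotypes in the labels, and deviations of equal-numbered KO and WT libraries correlated between -0.233 and 0.342 in fat (best with the own number in 2 of 5) and between -0.164 and 0.189 in liver (1 of 5). For fat against liver, where equal numbers may or may not be the same mouse, they correlated between 0.003 and 0.158 in WT (2 of 5) and between -0.018 and 0.047 in KO mice (1 of 5), and the block called 4 and 5 members, as without it. The block changed no call of a member. Low counts limit Dgkg, Dgkh and Dgke in liver most.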
